A study of Mus musculus with 13 samples.

Results

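Follicular helper T (Tfh) cells are the CD4+ T cells that enter B cell follicles and support germinal centres. Messenger RNA of 6 genes tied to this fate, Bcl6, Cxcr5, Il21, Cd40lg, Ascl2 and Pou2af1, was followed in sorted CD4+ T helper cells from the spleens of myeloma-bearing mice. The 6 genes were taken by name from a table of 56748 genes, and all 6 passed the filter on low counts that left 14059 genes for testing. The sort used no marker of follicular helper cells, so the genes are described and not a purified Tfh population.

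The mice were of the Eomes-GFP or the Eomes-TKO line, and both lines also carried Foxp3-Thy1.1, a reporter of the regulatory T cell factor Foxp3. Every animal received 50 µg of an antibody that depletes NK1.1+ cells on days -2 and 5 and Vk12653 multiple myeloma cells on day 0. Agonist antibody to 4-1BB, which costimulates activated T cells, or control IgG followed at 20 µg on days 10, 13 and 16, and spleens were taken on day 18. The sort took Thy1.1-negative cells that stained for CD4 and the T cell receptor, so cells with the Foxp3 reporter were left out. Cells of Eomes-GFP mice given 4-1BB antibody were split into 3 GFP+ and 3 GFP- libraries. The 4-1BB-treated Eomes-TKO mice gave 2 libraries, the IgG-treated Eomes-TKO mice 3 and the IgG-treated Eomes-GFP mice 2, all of cells not divided by GFP. How the Eomes-TKO line was made, and the age of the animals, are not given in the sources used here.

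Libraries held 6080975 to 10881146 estimated counts in total. Eomes, the T-box factor whose reporter was sorted, stood at 570 to 705 CPM (counts scaled to libraries of the same size) in GFP+ libraries and at 1.83 to 3.53 CPM in GFP- libraries. It stood at 3.59 and 8.02 CPM in 4-1BB-treated Eomes-TKO libraries, at 1.35 to 3.18 CPM in IgG-treated Eomes-TKO libraries and at 14.0 and 16.8 CPM in IgG-treated Eomes-GFP libraries. As a check of the sort, 8 T cell markers had summed levels of at least 3621 CPM in every library. Of the markers of other cells, Tnfrsf17 of plasma cells and Klra4 of NK cells had no count in any of the 13 libraries, while other genes of both lists were detected. Klrb1c, which encodes the depleted NK1.1, was at 0.392 to 13.0 CPM, and Foxp3 stayed between 0.392 and 2.65 CPM.

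Bcl6 encodes the transcriptional repressor that directs the Tfh fate. Ascl2 encodes a basic helix-loop-helix factor that acts early in it, and Pou2af1 encodes OCA-B, a coactivator of octamer-binding factors best known in B cells. Cxcr5 encodes the chemokine receptor that brings cells to the follicle, where its ligand CXCL13 is made. Il21 encodes a cytokine and Cd40lg the CD40 ligand, and these are the main signals by which T cells help B cells in the germinal centre.

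Because the sort divided cells by the reporter of a T-box factor, promoters of the members were read for AGGTGT, the core letters bound by T-box factors. Windows from 250 bases before to 50 bases after a RefSeq start on GRCm38.p6 were given for 4 of the 6 members, Il21, Ascl2, Pou2af1 and Bcl6. The letters, searched on both strands, were in the windows of Il21 and Ascl2, which are shown here 5′ to 3′ on the gene's strand with the matches in capitals, and they were not in the window of Pou2af1 or in either window of Bcl6. The Il21 window is chr3:37232587-37232886 (minus strand), and the Ascl2 window is chr7:142969215-142969514 (minus strand).
Il21: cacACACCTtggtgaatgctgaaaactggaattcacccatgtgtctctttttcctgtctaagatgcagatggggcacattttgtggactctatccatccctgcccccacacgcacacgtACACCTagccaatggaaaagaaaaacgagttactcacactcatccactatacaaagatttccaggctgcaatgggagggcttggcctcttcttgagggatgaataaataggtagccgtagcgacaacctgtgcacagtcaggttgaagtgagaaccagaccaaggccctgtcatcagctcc
Ascl2: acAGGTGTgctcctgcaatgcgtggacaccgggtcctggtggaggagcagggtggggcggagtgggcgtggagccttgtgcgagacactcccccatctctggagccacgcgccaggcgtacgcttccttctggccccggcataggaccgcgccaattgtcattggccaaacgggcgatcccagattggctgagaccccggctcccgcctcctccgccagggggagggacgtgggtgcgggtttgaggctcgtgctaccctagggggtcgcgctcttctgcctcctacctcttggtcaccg
In Il21 both matches lie on the opposite strand and read ACACCT, at 247 to 242 and at 131 to 126 bases before the start. In Ascl2 the match lies 248 to 243 bases before the start. The letters occur in 13.7% of 32851 mouse promoters of this length, and a match says nothing about binding. The Pou2af1 window held 1 octamer core, TGCAAAT, 231 to 225 bases before the start, as 4.02% of the promoters do. Of other letters searched, TTCNNNGAA (GAS, in 8.30% of promoters) occurred in both Bcl6 windows and not in the other windows. CTTTGA (TCF, in 16.0% of promoters) occurred only in the Bcl6 window at chr16:23981234-23981533. CAGCTG (E-box) and TGANTCA (AP-1) occurred in none of the windows.

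GFP+ cells of 4-1BB-treated mice differed from the GFP- cells of the same mice in 5 of the 6 genes, and not in 1 direction. Cxcr5, Il21 and Pou2af1 were higher and Cd40lg and Ascl2 were lower in GFP+ cells, while Bcl6 did not pass the test. The call rests on an adjusted p under 0.05 over all tested genes, and 37.1% of these passed it in this comparison, 20.7% as higher and 16.5% as lower in GFP+ cells. Without any 1 of the 6 GFP+ and GFP- libraries 3 or 4 of the genes were called, and Cxcr5, Cd40lg and Pou2af1 were among them each time. The median log2 fold change of the 6 genes was 0.39, against 0.02 over all tested genes.

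**Figure D1:**
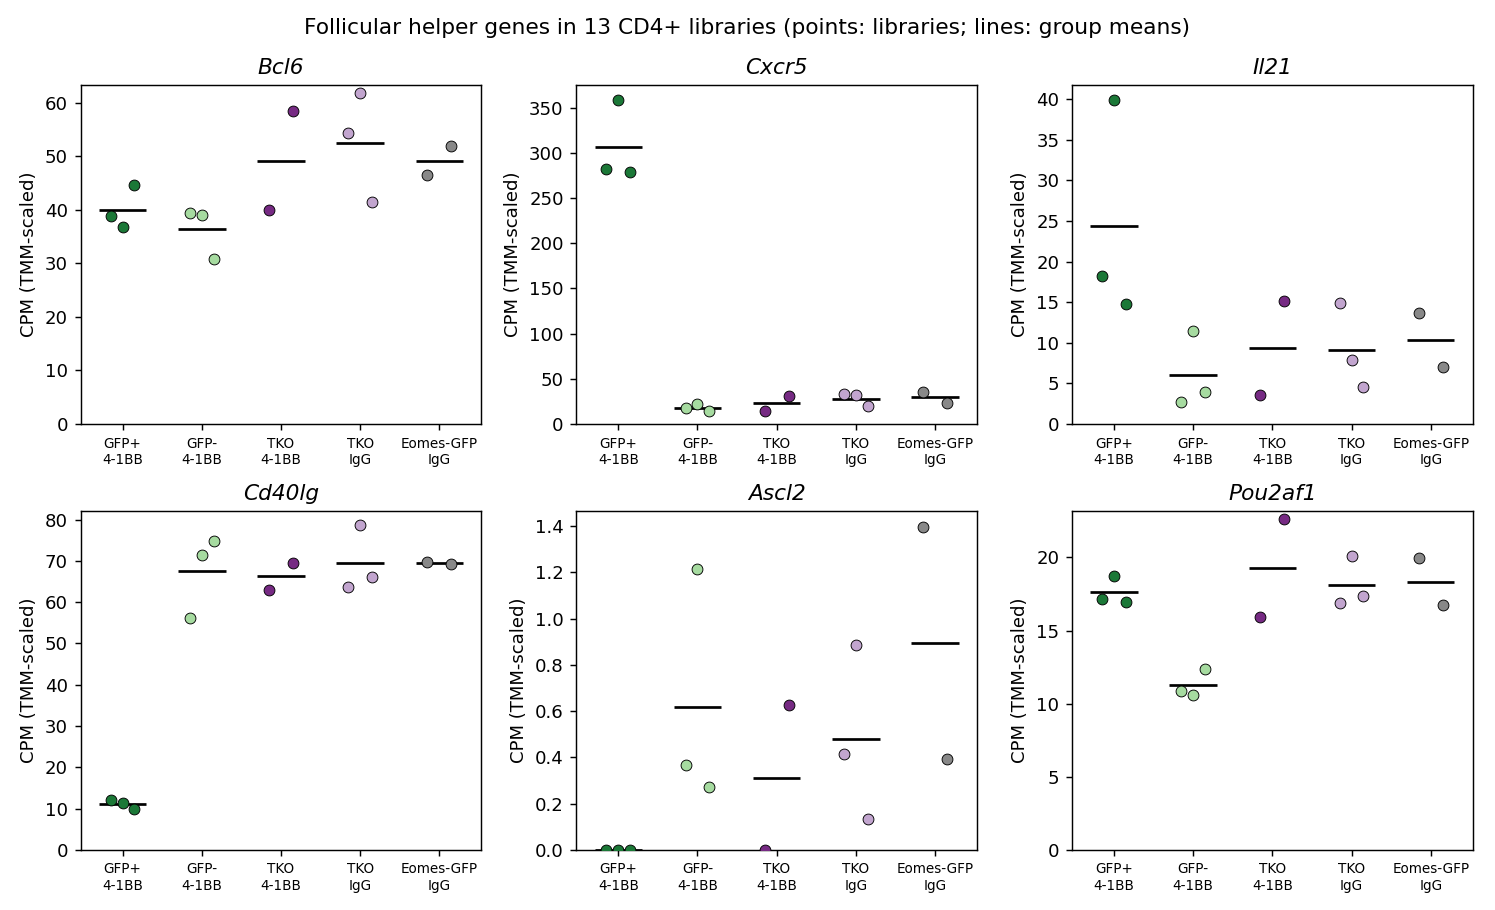
Level of each of the 6 genes in CPM (linear axis from 0) in the 13 libraries, by group; points are libraries and lines are group means. Cxcr5 is above 278 CPM only in the 3 GFP+ libraries and Cd40lg is below 12.2 CPM only there, while all Bcl6 points lie between 30.9 and 61.8 CPM.

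Cxcr5, the follicle-homing receptor, showed the largest rise of the 6. GFP+ libraries held 282, 358 and 278 CPM, against 17.5, 22.6 and 14.3 CPM in GFP- libraries. All GFP+ libraries were far above all GFP- libraries. The means were 306 ± 45.0 CPM in GFP+ cells and 18.2 ± 4.18 CPM in GFP- cells (SD, n = 3 each), a log2 fold change of 4.08 ± 0.30 (SE) with an adjusted p of 1.4e-06. In libraries sharing a prefix, read as those of 1 animal, GFP+ cells held 16.1, 15.8 and 19.4 times the level of GFP- cells. In bulk RNA a larger share of expressing cells and more RNA per cell cannot be told apart, here or for any gene below.

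Il21, the B cell helper cytokine, rose with a wide spread. Its level was 18.3, 39.9 and 14.8 CPM in GFP+ libraries, against 2.68, 11.4 and 3.97 CPM in GFP- libraries. The lowest GFP+ library was above the highest GFP- library, and the second replicate was the highest in both fractions. The log2 fold change was 2.02 ± 0.71 with an adjusted p of 0.0491, just inside the threshold. It was kept with DESeq2 (adjusted p = 0.024), limma-voom (0.0153), the compared groups alone (0.0425) and the replicate number as a block (0.043). Apart from the GFP+ and GFP- pairs, libraries with the same replicate number shared no prefix, so that block does not stand for animals there. The adjusted p was 0.0513 with RLE size factors, 0.0515 with library totals only and 0.0568 with upper-quartile scaling. It was 0.0529 with a stricter filter on low counts and 0.134 against a fold threshold of 1.5. The call was lost in 10 of 17 alternatives, the leave-one-out fits among them. Without 1 library the log2 fold change ran from 1.43, without GFP+ replicate 2, to 2.85, without GFP- replicate 2, where the adjusted p was 0.0188. The adjusted p was 0.07, 0.179 and 0.0522 without GFP+ replicate 1, 2 and 3, and 0.143 and 0.146 without GFP- replicate 1 and 3. Blocking by animal, in a fit of these 6 libraries, gave a log2 fold change of 2.04 with an adjusted p of 0.000106, and within animals the GFP+ level was 6.82, 3.49 and 3.73 times the GFP- level.

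Cd40lg, the other B cell help signal, moved the opposite way. GFP+ libraries held 12.2, 11.4 and 9.77 CPM, against 56.2, 71.4 and 74.8 CPM in GFP- libraries. The groups were well apart and each was narrow. Means were 11.1 ± 1.23 CPM in GFP+ cells and 67.5 ± 9.93 CPM in GFP- cells (SD, n = 3 each), a log2 fold change of -2.61 ± 0.14 with an adjusted p of 6.44e-09. Within animals the GFP+ level was 4.61, 6.28 and 7.66 times lower. Cxcr5 and Il21 were thus higher, and Cd40lg lower, in the same libraries.

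Bcl6 was measured at 38.8, 36.7 and 44.5 CPM in GFP+ libraries, against 39.5, 39.1 and 30.9 CPM in GFP- libraries. The groups overlapped, and the GFP+ to GFP- ratio within animals was 0.982, 0.941 and 1.44. The log2 fold change was 0.14 ± 0.17 with an adjusted p of 0.572, and its 95% interval ran from -0.26 to 0.54. A change of Bcl6 as large as that of Cxcr5, Il21 or Cd40lg lies outside this interval.

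Ascl2 was scarce throughout, with no more than 11 counts in a library. The 3 GFP+ libraries had no count, against 3, 10 and 3 counts in GFP- libraries. With 3 counts over the group as the limit that a count of 0 allows, GFP+ cells were at least 4.69-fold lower than GFP- cells, taking the GFP- counts as measured. Most of these came from GFP- replicate 2, and without it the bound was 2.51-fold. The pooled GFP- level of 0.582 CPM has a 95% counting interval from 0.332 to 0.944 CPM (exact Poisson). The adjusted p was 0.0328. It was 0.0644 without the first and 0.0684 without the second GFP+ library, 0.0447 without GFP- replicate 1 and 0.072 against a fold threshold of 1.5. The gene did not pass the filter, and was not tested, without GFP+ replicate 3, without GFP- replicate 2 or 3, in the fits of the 6 libraries alone and under the stricter filter.

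Pou2af1 showed the smallest called difference of the 6. GFP+ libraries held 17.2, 18.7 and 17.0 CPM, against 10.8, 10.6 and 12.4 CPM in GFP- libraries. The fractions did not overlap, and the log2 fold change was 0.64 ± 0.17 with an adjusted p of 0.00846. Against a fold threshold of 1.5 the adjusted p was 0.543. Since Pou2af1 is also a B cell gene, the 12 B cell markers are given beside it. They summed to 15.9 to 23.9 CPM in GFP+ cells and 15.7 to 20.4 CPM in GFP- libraries, mostly Cd22, with Ms4a1 at 0 in 10 of the 13 libraries.

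**Figure D2:**
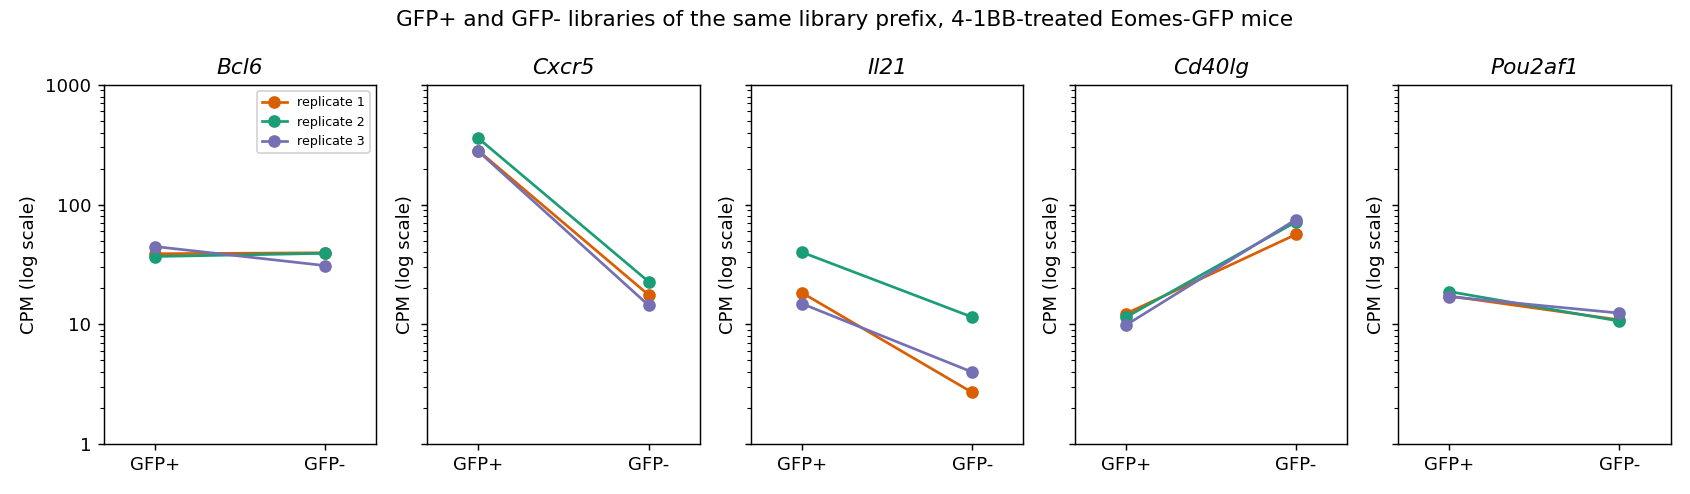
Level in CPM (log axis) of 5 of the genes in the GFP+ (left) and GFP- (right) library of each 4-1BB-treated Eomes-GFP animal, with a line joining libraries of the same prefix; Ascl2 is left out because its GFP+ libraries had no count. All 3 lines fall towards GFP- cells for Cxcr5, Il21 and Pou2af1 and climb for Cd40lg, and the 3 lines of Bcl6 run in different directions.

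The IgG-treated Eomes-GFP mice gave undivided cells and show where each fraction stood relative to cells not exposed to 4-1BB antibody. Against them GFP+ cells were called in 3 of the 6 genes, 1 higher and 2 lower, where 34.2% of all tested genes were called, 18.8% as higher and 15.4% as lower. This comparison uses the same GFP+ libraries as the one above. The antibody and the GFP gate both differ between its groups and cannot be told apart. Cxcr5 averaged 306 CPM in GFP+ cells, against 35.6 and 23.4 CPM in the IgG libraries, a log2 fold change of 3.38 ± 0.34 (adjusted p = 1.72e-05). Cd40lg averaged 11.1 CPM in GFP+ cells, against 69.7 and 69.2 CPM in the IgG libraries, a log2 fold change of -2.65 ± 0.15 (adjusted p = 1.3e-08). Both IgG libraries lay within the range of the GFP- libraries for Cd40lg.

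Ascl2 had no count in GFP+ libraries, against 11 and 4 counts in the IgG libraries (adjusted p = 0.0228). Taking the IgG counts as measured, GFP+ cells were at least 6.68-fold lower. The pooled IgG level of 0.829 CPM has a 95% counting interval from 0.464 to 1.37 CPM (exact Poisson). Without the first IgG library the bound was 3.15-fold and the adjusted p was 0.147. Il21 averaged 24.3 CPM in GFP+ cells, against 13.7 and 7.04 CPM in the IgG libraries. All GFP+ libraries were above both IgG libraries, but the log2 fold change of 1.24 ± 0.78 did not pass the test (adjusted p = 0.264). Pou2af1 averaged 17.6 CPM in GFP+ cells, against 19.9 and 16.7 CPM in the IgG libraries, and the groups overlapped (log2 fold change -0.06 ± 0.19, adjusted p = 0.849). Bcl6 averaged 40.0 CPM in GFP+ cells, against 46.5 and 51.8 CPM in the IgG libraries, with all GFP+ libraries below both IgG libraries (log2 fold change -0.30 ± 0.19, adjusted p = 0.255).

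GFP- cells against the same IgG libraries gave no call among the 6 genes with edgeR, DESeq2 or limma-voom, where edgeR called 0.761% of all tested genes. At an unadjusted p under 0.05 the counts were 2 with edgeR, 3 with DESeq2 and 3 with limma-voom, and 8.76% of all tested genes passed with edgeR. Those of edgeR were Pou2af1, with a log2 fold change of -0.70 ± 0.19 (adjusted p = 0.126), and Bcl6, with -0.43 ± 0.19 (adjusted p = 0.507). Cxcr5 gave -0.70 ± 0.32 (adjusted p = 0.582) and Il21 -0.78 ± 0.79 (adjusted p = 0.905). Cd40lg gave -0.04 with a 95% interval from -0.37 to 0.29. Here too the antibody and the GFP gate both differ between the groups and cannot be told apart. Pou2af1 averaged 17.6 ± 0.952 CPM in GFP+ cells, 11.3 ± 0.958 CPM in GFP- cells and 18.3 ± 2.28 CPM in IgG cells (SD, n = 3, 3 and 2), and the GFP- libraries were below all of the others.

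Eomes-TKO mice given 4-1BB antibody or IgG address whether the antibody changed the 6 genes in this line. Of the 6 genes 0 were called with edgeR, DESeq2 or limma-voom, where edgeR called 0.0427% of all tested genes. With each tool 0 had an unadjusted p under 0.05, which 3.6% of all tested genes had with edgeR. Cxcr5 was at 14.8 and 31.2 CPM after 4-1BB antibody, against 32.8, 31.6 and 20.3 CPM after IgG. Il21 was at 3.59 and 15.1 CPM after 4-1BB antibody, against 14.9, 7.88 and 4.51 CPM after IgG. The groups overlapped for both genes, and the second 4-1BB-treated library was the higher of its group.

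Cd40lg was at 63.0 and 69.5 CPM in Eomes-TKO cells after 4-1BB antibody, against 63.7, 78.7 and 66.1 CPM after IgG. Bcl6 was at 39.9 and 58.4 CPM after 4-1BB antibody, against 54.2, 61.8 and 41.4 CPM after IgG. Pou2af1 was at 15.9 and 22.6 CPM after 4-1BB antibody, against 16.9, 20.1 and 17.4 CPM after IgG, and Ascl2 had 0 and 6 counts after 4-1BB antibody, against 4, 9 and 1 counts after IgG. These groups overlapped as well. The 95% intervals of the log2 fold change ran from -0.40 to 0.26 for Cd40lg, from -0.53 to 0.35 for Bcl6 and from -0.33 to 0.52 for Pou2af1. They were wider for Cxcr5, from -1.02 to 0.47, and for Il21, from -1.74 to 1.88.

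The 2 genotypes under IgG were compared next. Each of the 3 tools called 0 of the 6 genes, where edgeR called 0.0142% of all tested genes, and 0 of them had an unadjusted p under 0.05, against 3.06% of all tested genes with edgeR. Eomes-TKO cells averaged 28.2 ± 6.90 CPM of Cxcr5 and Eomes-GFP cells 29.5 ± 8.63 CPM, and Cd40lg averaged 69.5 ± 8.06 CPM in Eomes-TKO cells and 69.5 ± 0.362 CPM in Eomes-GFP cells (SD, n = 3 and 2). The 95% interval of the log2 fold change was -0.78 to 0.68 for Cxcr5 and -0.33 to 0.33 for Cd40lg. Bcl6, Il21 and Pou2af1 gave 0.10 ± 0.19, -0.17 ± 0.78 and -0.01 ± 0.18.

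After 4-1BB antibody, undivided Eomes-TKO cells differed from GFP+ cells in 2 of the 6 genes, where 34.6% of all tested genes were called, 15.7% as higher and 18.8% as lower in Eomes-TKO cells. Cxcr5 was lower in Eomes-TKO cells with a log2 fold change of -3.70 ± 0.35 (adjusted p = 1.12e-05), and Cd40lg was higher with 2.58 ± 0.15 (adjusted p = 1.86e-08). Il21 gave -1.33 ± 0.79 (adjusted p = 0.231) and Ascl2 an adjusted p of 0.101. Genotype and the GFP gate both differ between these groups and cannot be told apart.

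Against GFP- cells, Eomes-TKO cells gave no call among the 6 genes with edgeR, DESeq2 or limma-voom, where edgeR called 0.0427% of all tested genes, and each of the 3 tools gave 2 genes at an unadjusted p under 0.05, which 6.97% of all tested genes had with edgeR. With edgeR these were Pou2af1, higher in Eomes-TKO cells by 0.78 ± 0.19 (adjusted p = 0.327), and Bcl6, with 0.44 ± 0.19 (adjusted p = 0.689). The libraries did not overlap for either gene. For Bcl6 the gap was narrow, with 39.9 CPM in the lower Eomes-TKO library and up to 39.5 CPM in GFP- libraries. Cd40lg gave -0.03 with a 95% interval from -0.36 to 0.30. As against GFP+ cells, genotype and the GFP gate cannot be told apart here.

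**Figure D3:**
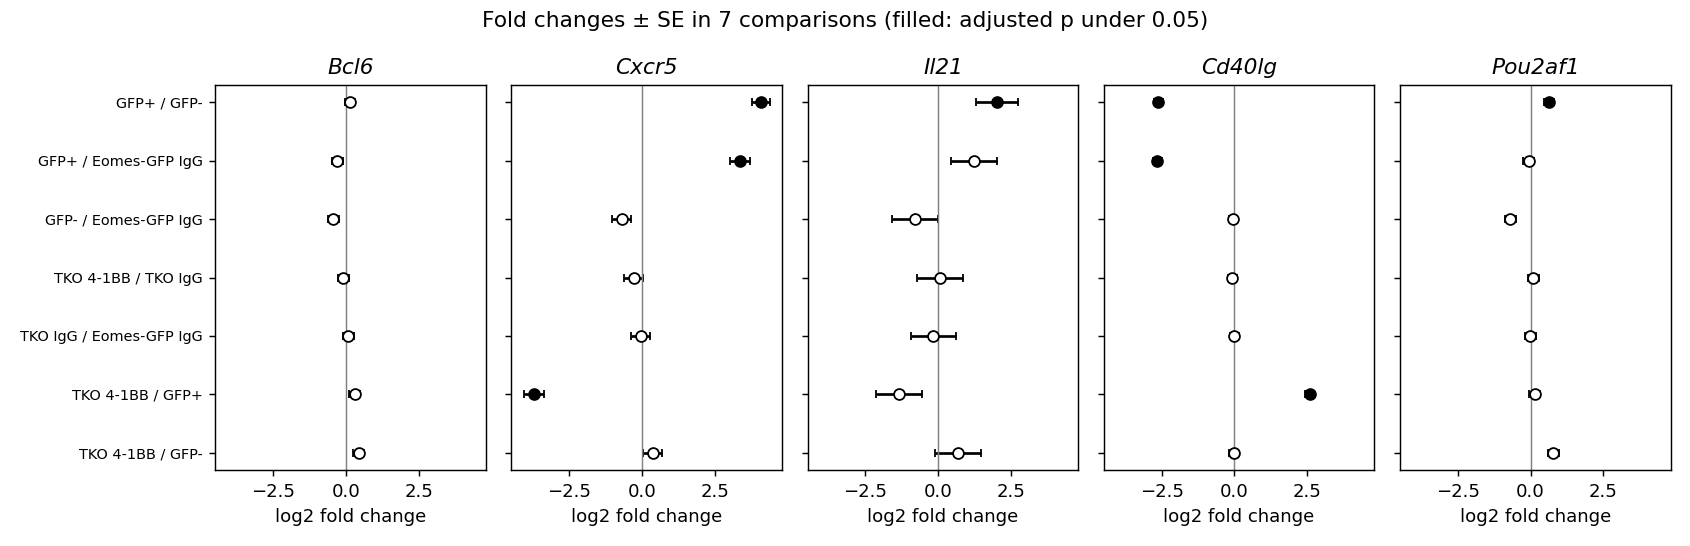
Log2 fold change ± SE of 5 of the genes in the 7 comparisons, each the first-named over the second-named group, with filled points for an adjusted p under 0.05; Ascl2 is left out because GFP+ libraries had no count. Filled points occur only in comparisons with the GFP+ libraries, and the bars of Il21 are the widest.

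In order of mean level, GFP+ cells stood first for Cxcr5, last for Cd40lg and apart from the next group in both. For both genes the other 4 groups each overlapped their neighbours among them in this order. Groups further apart did not all overlap. For Cxcr5 the IgG-treated Eomes-GFP libraries, from 23.4 CPM, were above all GFP- libraries, which reached 22.6 CPM. For Il21 GFP+ cells stood first without overlapping the next group, the IgG-treated Eomes-GFP cells, but overlapped both Eomes-TKO groups. For Pou2af1 GFP- cells stood last, apart from the other 4 groups. For Bcl6 the means of the undivided groups were above those of both sorted fractions, with GFP- cells last, and these fractions overlapped. GFP+ libraries, which reached 44.5 CPM of Bcl6, also overlapped the 4-1BB-treated and the IgG-treated Eomes-TKO libraries, which began at 39.9 and 41.4 CPM.

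Across the 13 libraries Cxcr5 and Cd40lg had a Pearson correlation of -0.95 on the log2 scale, Cxcr5 and Il21 of 0.79, and Cxcr5 and Bcl6 of -0.09. These points share the GFP+ libraries, which stand apart, and the values are descriptions. Of 9483 genes compared, the pattern most like that of Cxcr5 was that of Pik3ap1, a signalling adaptor, with r = 0.98, followed by Cab39 and by Prf1, which encodes perforin. Pik3ap1 averaged 124 CPM in GFP+ cells and 2.39 CPM in GFP- cells, and Prf1 averaged 216 CPM in GFP+ cells and 34.1 CPM in GFP- cells. For Cd40lg the nearest genes were Treml2 (r = 0.995), Pdlim1 and Cyp2s1, and Treml2 averaged 10.6 CPM in GFP+ cells and 174 CPM in GFP- cells. The nearest gene reached r = 0.90 for Il21 (Slc29a1), 0.88 for Ascl2 (Mlst8), 0.87 for Pou2af1 (Mindy2) and 0.85 for Bcl6 (Zfp729b).

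Other genes of the Tfh pathway, gathered in 5 lists of 64 different tested genes, were likewise divided between GFP+ and GFP- cells. Of the 64, 45 were called with edgeR, against 37.1% of all tested genes, 20.7% as higher and 16.5% as lower. The lists were chosen with earlier results of these data known, so their counts are descriptions. Of 14 transcription factors of the Tfh programme 7 were higher and 5 lower in GFP+ cells, with a median log2 fold change of 0.52. Maf, a factor that drives Il21 (2.50 ± 0.27), Tox2 (2.48 ± 0.41), Tox (2.43 ± 0.10), Batf (1.57 ± 0.25) and Irf4 (1.55 ± 0.28) were the highest. Lef1 (-1.46 ± 0.15) and Tcf7 (-1.38 ± 0.20), the Wnt-pathway factors that act upstream of Bcl6, were lower, as were Cebpa (-2.68 ± 0.69) and Bach2 (-1.75 ± 0.16).

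Of 15 surface receptors and adaptors 7 were higher and 5 lower, with a median of 0.45. The inhibitory receptors Tigit (5.09 ± 0.54) and Pdcd1 (3.82 ± 0.27), which encodes PD-1, rose most, followed by Sh2d1a (2.18 ± 0.13), which encodes the adaptor SAP that stabilises contacts of T and B cells. Cd28 (0.83 ± 0.10) and Slamf6 (0.61 ± 0.14) rose less. The subunits of the IL-6 receptor, Il6ra (-3.41 ± 0.14) and Il6st (-1.42 ± 0.11), which carry an inducing signal of the Tfh fate, were lower, with Tnfsf8 (-2.57 ± 0.15), P2rx7 (-2.07 ± 0.21) and Btla (-0.45 ± 0.15).

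Of 8 secreted and signalling genes of Tfh cells 6 were tested, since Il4 and Cxcl13 did not pass the filter. Rgs16, a regulator of chemokine receptor signalling, was higher (4.23 ± 0.42), and Sostdc1 (-4.01 ± 1.07), Gpm6b (-2.37 ± 0.38) and Angptl2 (-1.86 ± 0.38) were lower, with a median of -0.96.

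Of 18 genes that restrain the Tfh fate or are repressed by Bcl6, 5 were higher and 9 lower, with a median of -0.30. Prdm1, which encodes Blimp-1, the factor that opposes Bcl6, was highest (3.50 ± 0.19) and averaged 142 CPM in GFP+ cells. Il2rb (2.38 ± 0.22) and Runx3 (1.79 ± 0.12) were higher, while Il2ra (-1.77 ± 0.36) was lower. The receptors Il7r (-3.23 ± 0.28) and Ccr7 (-3.11 ± 0.10), of which Ccr7 brings cells to the T cell zone, fell most. Of 14 tested partners of the 6 genes 3 were higher, Pou2f2 (0.99 ± 0.18), Id2 (0.60 ± 0.21) and Tcf3 (0.40 ± 0.12), and Id1 was lower (-1.73 ± 0.65). Pou2f2 encodes an octamer-binding partner of OCA-B. Without 1 of the 6 libraries in turn, Id2, which also stands among the restraints, and Btla lost the call in 5 fits each. Id1 lost it in 4 fits, Tcf3 in 2 and Sostdc1 in 1. With upper-quartile scaling, which lowered the median of all tested genes to -0.12, 1 of the partners was higher and 6 were lower.

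**Figure D4:**
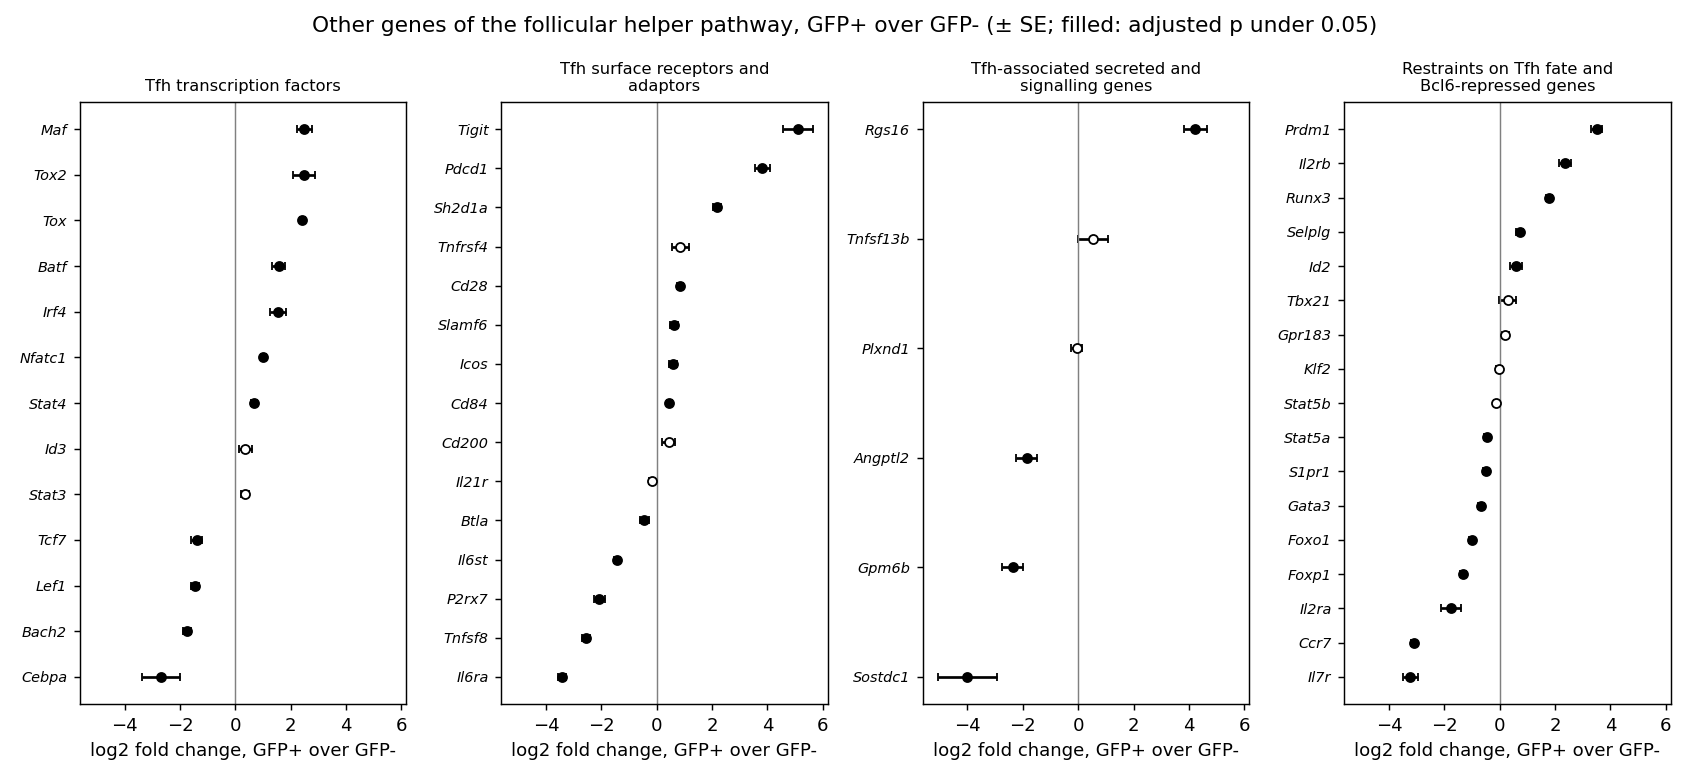
Log2 fold change ± SE in GFP+ over GFP- cells of tested genes in 4 lists of the Tfh pathway, sorted by value within each list, with filled points for an adjusted p under 0.05. Each list holds filled points on both sides of 0, with Tigit at 5.09 and Sostdc1 at -4.01 as the extremes.

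The pathway genes were not called elsewhere with edgeR except against the GFP+ libraries. Their lists were chosen with earlier results of these data known, so the counts below are descriptions too. Of the 64 genes 43 were called in GFP+ cells against IgG-treated Eomes-GFP cells, where 34.2% of all tested genes were, and 45 in 4-1BB-treated Eomes-TKO cells against GFP+ cells, where 34.6% were. In GFP- cells against IgG, in Eomes-TKO cells after 4-1BB antibody against IgG, in Eomes-TKO against Eomes-GFP cells under IgG and in Eomes-TKO against GFP- cells edgeR called none of them, with 6, 1, 2 and 6 genes at an unadjusted p under 0.05. The shares of all tested genes at that p were 8.76%, 3.6%, 3.06% and 6.97%. DESeq2 called 2 of them in the first of these comparisons and none in the other 3, and limma-voom called none in any of the 4.

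Markers of other cells also moved with the GFP sort, in both directions within several lists, and the genes given here with values were chosen after these were seen. Beside the list counts here and below, 20.7% of all tested genes were called as higher and 16.5% as lower in GFP+ cells. The 11 plasma cell and myeloma markers summed to 662 to 702 CPM in GFP+ libraries and 370 to 378 CPM in GFP- libraries. Of 7 tested 4 were higher and 1 lower. Slamf7 averaged 179 ± 4.90 CPM in GFP+ cells and 6.82 ± 1.10 CPM in GFP- cells, and Prdm1 142 ± 33.2 CPM in GFP+ cells and 12.5 ± 0.626 CPM in GFP- cells (SD, n = 3 each). Of the immunoglobulin genes, Igkc averaged 79.1 ± 2.95 CPM in GFP+ cells and 0.355 ± 0.229 CPM in GFP- cells, while Ighm was lower, at 138 ± 19.1 CPM in GFP+ cells and 258 ± 6.13 CPM in GFP- cells. Xbp1 was not called, and Sdc1 stayed at or under 0.487 CPM in all 13 libraries.

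The 6 germinal centre B cell markers summed to 45.4 to 73.0 CPM in GFP+ libraries and 24.8 to 33.6 CPM in GFP- libraries, with Rgs13 at 0 in all, and S1pr2 was the 1 gene called, as higher, of 4 tested. The 4 regulatory T cell markers summed to 622 to 726 CPM in GFP+ libraries and 101 to 133 CPM in GFP- libraries. Of these Ikzf2 and Ctla4 were higher, but Foxp3, at 0.494 CPM in GFP+ cells and 1.44 CPM in GFP- cells, and Il2ra, at 3.38 CPM in GFP+ cells and 11.6 CPM in GFP- cells, were lower.

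The 8 myeloid markers summed to 149 to 169 CPM in GFP+ libraries and 145 to 174 CPM in GFP- libraries, and of 6 tested 3 were higher and 1 lower. Cd68 averaged 23.4 CPM in GFP+ cells and 5.17 CPM in GFP- cells, Itgam 17.2 CPM in GFP+ cells and 6.18 CPM in GFP- cells, and Itgax 5.12 CPM in GFP+ cells and 0.585 CPM in GFP- cells, while Ctss was the lower one. The 5 NK cell markers summed to 0.523 to 1.503 CPM in GFP+ libraries and 0.812 to 1.95 CPM in GFP- libraries. Klrb1c, the only one tested, was lower in GFP+ than in GFP- cells, at 0.494 CPM in GFP+ cells, 1.49 CPM in GFP- cells and 6.82 CPM in IgG-treated Eomes-GFP cells, and both fractions were lower than the IgG cells. Prdm1 of the plasma cell list also stands among the restraints on the Tfh fate above. Whether the libraries held any of these other cells was not tested, nor was a part of such cells in the levels of Il21, Cxcr5 and Pou2af1.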

How the data were processed

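RNA was measured by sequencing of ribosomal-depleted total RNA from 11 ng per sample, per the labels' protocols. The table deposited by the authors holds estimated counts of genes. The submitters' processing notes name STAR 2.7.10a, Salmon 1.5.2, Trim Galore 0.6.7, cutadapt 3.4 and GRCm39. Of 47 library columns, 13 matched the labels and 34 were not used. Between 6.25% and 7.33% of a library's values were not whole, and all were rounded.

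Groups came from the labels. A shared library prefix of GFP+ and GFP- libraries was read as 1 animal, giving 10 animals in all. Nothing else says that replicates were separate animals, so the spread behind a p-value is that between libraries. Between libraries of the same prefix, deviations from group means had correlations of 0.317, 0.112 and 0.061, and other pairs ran from -0.255 to 0.155.

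All 13 libraries entered 1 edgeR fit (version 4.0.16, R 4.3.3) after TMM scaling and filterByExpr, with the robust quasi-likelihood test (two-sided, 8 residual degrees of freedom) and Benjamini-Hochberg adjustment over 14059 genes at 0.05. The SE is the size of the log2 fold change over the root of F. The 95% intervals of log2 fold changes use this SE and a t distribution with the 8 residual degrees of freedom. The test adds prior degrees of freedom to these, so an interval can include 0 where the unadjusted p is under 0.05. CPM are scaled by TMM and not by gene length, so levels were not compared between genes. Limits from 3 counts cover counting error only. Likeness used log2 CPM with a prior count of 2 among genes averaging at least 2 on that scale. Alternatives were other scalings, DESeq2 1.42.0, limma-voom (limma 3.58.1), other filters, a replicate block, the compared groups alone, leave-one-out fits and a threshold of 1.5-fold. The 6 genes are those named for the Tfh fate, and up to 5 called genes per direction of each pathway list were named, largest fold change first. The members and lists were chosen with earlier results of these data known. Counts over a list cover all of its tested genes, and a few of them are not reported here by name or drawn.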

Additional observations from a re-analysis of the deposited data

How the results depend on the processing

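Every value of Cxcr5 and Cd40lg that was called with edgeR kept its direction and its call under all alternatives. Of the 6 genes 5 were called in GFP+ against GFP- cells, and the count was 3 with a stricter filter, 2 against a fold threshold of 1.5 and between 3 and 4 without 1 library. Without a filter 1 gene, Cxcr5, was called in GFP- against IgG-treated Eomes-GFP cells, as lower (edgeR, adjusted p = 0.000968). In 4-1BB-treated Eomes-TKO against GFP+ cells 4 were called, with Il21 (adjusted p = 1.81e-05) and Ascl2 (0.0413) added. Il21 was then also called as higher in GFP+ against IgG-treated Eomes-GFP cells (6.49e-05). The cause was not tested. Groups held 2 or 3 libraries, and Ascl2 had at most 11 counts in a library.

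Over all genes, calls ran between settings from 1 to 521 in GFP- against IgG-treated Eomes-GFP cells (107 in the fit reported), from 0 to 258 in Eomes-TKO cells after 4-1BB antibody against IgG (6), from 0 to 112 between the genotypes under IgG (2) and from 0 to 220 in Eomes-TKO against GFP- cells (6), the highest being without a filter each time. With a fold threshold of 1.5 the counts fell to 2146 of 5220 in GFP+ against GFP- cells, 2214 of 4809 in GFP+ against IgG-treated cells and 2153 of 4859 in Eomes-TKO against GFP+ cells. Upper-quartile scaling gave 2186 higher and 3095 lower genes in GFP+ against GFP- cells, in place of 2905 and 2315, and it moved the median log2 fold change of all genes to -0.14 in GFP+ against IgG-treated cells and to 0.16 in Eomes-TKO against GFP+ cells.

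Direction changed in 44 cases among 25 results, none of them called in the fit reported or in the alternative. Log2 fold changes turned to 0.018 for Cd40lg in Eomes-TKO against GFP- cells with library totals only and to -0.071 for Ncor1 in GFP+ against GFP- cells with upper-quartile scaling. With limma-voom they turned to -0.014 for Il21 in Eomes-TKO cells after 4-1BB antibody against IgG, and to -0.0023 for Cd40lg and 0.0027 for Pou2af1 between the genotypes under IgG. With the replicate number as a block they turned to -0.34 for Il21 in Eomes-TKO cells after 4-1BB antibody against IgG, and to 0.052 for Cxcr5, 0.046 for Il21 and -0.00016 for Cd40lg between the genotypes. Blocking by number left the count of called genes among the 6 unchanged in every comparison, and blocking by animal gave 4 in GFP+ against GFP- cells, in a fit that did not test Ascl2. Some log2 fold changes crossed 0 without 1 library. In GFP- over IgG-treated Eomes-GFP cells they ran from -1.20 to 0.61 for Ascl2 and -0.12 to 0.074 for Cd40lg. In 4-1BB-treated Eomes-TKO over GFP- cells they ran from -5.41 to 0.049 for Ascl2, -0.14 to 0.055 for Cd40lg, -0.29 to 0.78 for Cxcr5 and -0.73 to 1.51 for Il21. In 4-1BB-treated over IgG-treated Eomes-TKO cells they ran from -5.14 to 0.32 for Ascl2, -0.40 to 0.15 for Bcl6, -0.15 to 0.031 for Cd40lg, -0.94 to 0.13 for Cxcr5, -1.36 to 0.71 for Il21 and -0.19 to 0.31 for Pou2af1. In Eomes-TKO over Eomes-GFP cells under IgG they ran from -1.47 to 0.33 for Ascl2, -0.038 to 0.25 for Bcl6, -0.098 to 0.060 for Cd40lg, -0.33 to 0.28 for Cxcr5, -0.71 to 0.38 for Il21 and -0.14 to 0.12 for Pou2af1. In 4-1BB-treated Eomes-TKO over GFP+ cells they ran from -0.0065 to 0.57 for Bcl6 and -0.15 to 0.39 for Pou2af1. In GFP+ over IgG-treated Eomes-GFP cells they ran from -0.18 to 0.040 for Pou2af1. In GFP+ over GFP- cells they ran from -0.15 to 0.014 for Klf2, -0.085 to 0.51 for Tbx21 and -0.013 to 0.81 for Tnfsf13b.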
